A study of Mus musculus with 59 samples.

Results

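The genes described here encode the enzymes that build cholesterol and long-chain fatty acids from acetyl-CoA, with 4 genes of their control and transport. Of 30 such genes listed by name, 24 had a probe set on the array, out of 11807 genes measured in all. They are 15 sterol enzyme genes, 7 fatty acid genes, and the regulator Srebf2 with the sterol transfer gene Stard4. Acat2, Hmgcs1, Pmvk, Scd2, Srebf1 and Insig1 matched no probe set of the annotation used and were not analysed here. Each gene was represented by its brightest probe set, and the list was set across every line of the series as a sterol branch and a fatty acid branch.

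The series measured messenger RNA of 59 mouse pluripotent stem cell lines on Affymetrix arrays, with 1 array per line. It held 48 induced pluripotent stem cell (iPSC) clones, 1 clone labelled Adeno-iPSC, 6 embryonic stem cell lines made by nuclear transfer (NT-ESC) and 4 embryonic stem cell (ESC) clones. The 48 iPSC clones came from mice derived from ESC that carry an inducible cassette of Myc, Klf4, Oct4 and Sox2. Every one of these clones thus carries the cassette. The origin labels name the animals chimera 1, chimera 2, mouse 1 and mouse 2, so only the first pair is labelled as chimeric. The ESC are KH2 cells labelled as targeted, and serve as the baseline that the series calls genetically matched.

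The iPSC clones were made from embryonic fibroblasts (MEF) of chimera 1 (6 clones), from hematopoietic stem cells (HSC), granulocyte-macrophage progenitors (GMP), granulocytes and PF cells of mouse 1 (4, 4, 3 and 2 clones), from the same 4 cell types of mouse 2 (4, 4, 3 and 3 clones), and from HSC, GMP, granulocytes and TTF cells of chimera 2 (3, 3, 3 and 6 clones). PF and TTF are label names, counted together below as fibroblast-derived. NT-4, NT-5 and NT-6 took their nuclei from Adeno-2, the Adeno-iPSC clone, whose origin is fetal liver. NT-7 took its nucleus from clone iPSC-7, and NT-8 and NT-9 took theirs from clone iPSC-15. All lines grew in medium with 15% fetal bovine serum and LIF on irradiated MEF feeder cells, which were depleted by 45 minutes of preplating. The labels give no sex, age or strain of the animals. Nothing in the labels says whether the clones of a group were grown or processed separately, so the p-values measure only the spread between these lines.

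Cholesterol synthesis runs from acetyl-CoA through mevalonate to isoprenoids, squalene and lanosterol, and ends with the modification of the sterol rings. Fatty acid synthesis starts from cytosolic acetyl-CoA, lengthens the chain on fatty acid synthase, and then elongates and desaturates it. The SREBP transcription factors, held in the endoplasmic reticulum by INSIG proteins when sterol is abundant, switch on both branches. SREBP2, the product of Srebf2, mainly drives the sterol genes and SREBP1 mainly the fatty acid genes, together with the co-factors NF-Y and SP1.

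Promoters are shown for the 4 genes on which the comparisons below turn: Fasn, the only member called between iPSC and ESC, and Tm7sf2, Lss and Hsd17b7, which differed most by cell of origin and not all in the same direction. Each sequence runs 5′ to 3′ on the gene's own strand from 250 bases before to 50 bases after the annotated start, in RefSeq's GRCm38.p6 annotation. Capitals mark CCAAT or its reverse ATTGG, the letters of the NF-Y box. The windows are chr10:76531355-76531654 on the plus strand for Lss, and on the minus strand chr19:6067801-6068100 for Tm7sf2, chr1:169969156-169969455 for Hsd17b7 and chr11:120824498-120824797 for Fasn. The starts used for Lss, Hsd17b7 and Fasn lie inside the outer bounds of those genes.
Lss: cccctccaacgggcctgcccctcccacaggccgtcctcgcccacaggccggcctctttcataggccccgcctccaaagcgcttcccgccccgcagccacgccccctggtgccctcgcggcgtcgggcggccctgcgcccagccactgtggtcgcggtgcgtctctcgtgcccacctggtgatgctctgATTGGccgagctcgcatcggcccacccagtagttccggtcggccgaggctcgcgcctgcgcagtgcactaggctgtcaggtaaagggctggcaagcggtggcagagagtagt
Tm7sf2: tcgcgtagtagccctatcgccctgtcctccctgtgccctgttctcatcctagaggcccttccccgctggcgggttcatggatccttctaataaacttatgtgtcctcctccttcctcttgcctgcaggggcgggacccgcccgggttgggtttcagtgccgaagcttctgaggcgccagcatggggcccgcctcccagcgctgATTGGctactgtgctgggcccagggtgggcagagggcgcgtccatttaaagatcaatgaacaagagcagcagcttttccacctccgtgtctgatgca
Hsd17b7: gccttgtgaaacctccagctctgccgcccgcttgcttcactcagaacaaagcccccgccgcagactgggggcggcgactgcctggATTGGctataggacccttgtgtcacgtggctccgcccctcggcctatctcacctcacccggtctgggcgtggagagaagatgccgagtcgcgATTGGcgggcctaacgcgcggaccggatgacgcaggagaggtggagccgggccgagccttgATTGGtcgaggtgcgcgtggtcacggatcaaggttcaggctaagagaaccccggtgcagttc
Fasn: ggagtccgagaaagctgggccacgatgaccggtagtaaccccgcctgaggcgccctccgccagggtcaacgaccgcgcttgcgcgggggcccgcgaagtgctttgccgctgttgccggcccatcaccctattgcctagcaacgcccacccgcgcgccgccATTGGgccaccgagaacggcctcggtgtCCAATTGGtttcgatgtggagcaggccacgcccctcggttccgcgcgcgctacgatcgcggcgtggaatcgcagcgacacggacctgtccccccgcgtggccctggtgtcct

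RefSeq windows of this length were at hand for 18 of the 24 genes, 12 sterol, 5 fatty acid and Srebf2. CCAAT, on either strand, stood in a window of 12 of 12 sterol genes and of 2 of 5 fatty acid genes (Acly and Fasn), against 37.41% of 32851 promoter windows. In Fasn, a CCAAT and an ATTGG overlap in their middle letters. The GC box GGGCGG, the letters bound by SP1 and its relatives, on either strand, stood in 12 of 12 sterol genes and in 2 of 5 fatty acid genes (Acly and Fads2), against 35.66% of windows. The E-box CACGTG stood in 3 of 12 sterol genes (Dhcr7, Hsd17b7 and Sc5d) and in 0 of 5 fatty acid genes, against 7.15% of windows. The strict sterol regulatory element TCACNCCAC, searched on both strands, stood in 0 of 18 genes and in 1.24% of windows. These are matches of letters in a short window, and binding was not measured.

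Values are deposited intensities on a log2 scale, on which 1 unit is a 2-fold difference. A probe set's level depends on its own probes, so levels are compared between lines and never between genes. Differences are group mean minus group mean, with the standard error (SE) of the limma fit. "Called" means an adjusted p from limma below 0.05, after Benjamini-Hochberg adjustment over all 11807 genes. In cultures of many cells, fewer cells of a type and less RNA per cell cannot be told apart. The mean correlation of an array with the other ESC and iPSC arrays was 0.982 to 0.993 for 56 lines. It was 0.889 to 0.940 for NT-7, NT-8 and NT-9, which are therefore treated separately below. Clone iPSC-32 stood apart in Pou5f1, which encodes the pluripotency factor Oct4, at 0.28 against 4.06 in the next lowest iPSC clone.

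Averaged over its genes and set against the ESC mean of each gene, the sterol branch lay below the ESC mean in every iPSC clone from the 3 animals, while the MEF-derived clones lay around it. The 15-gene sterol mean was -0.18 ± 0.11 (SD, n = 42) in the clones of mouse 1, mouse 2 and chimera 2, between -0.46 in iPSC-7 and -0.03 in iPSC-44. In the 6 MEF-derived clones it lay between -0.11 and 0.04, and in the 4 ESC clones between -0.08 and 0.07. Both ranges overlapped the upper end of that of the 42 clones. Clones of mouse 1 had the lowest sterol mean, at -0.30 ± 0.08 (SD, n = 13), against -0.14 ± 0.09 (n = 14) in mouse 2 and -0.12 ± 0.07 (n = 15) in chimera 2. The mean level of 14 fibroblast and feeder markers was also highest in mouse 1, at 1.75, 1.49 and 1.38 in the same order, and at 1.71, 1.18 and 0.98 in blood-derived clones alone, and its part was not tested. The 7-gene fatty acid mean lay between -0.15 and 0.17 in the same 42 clones, between -0.06 and 0.04 in MEF-derived clones, and between -0.13 and 0.09 in ESC, so these ranges overlapped.

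Sterol minus fatty acid mean was below 0 in all 42 clones of the 3 animals, from -0.53 in iPSC-32 to -0.07 in iPSC-47, with a mean of -0.22. It lay between -0.11 and 0.08 in MEF-derived clones and between -0.08 and 0.07 in ESC, and both ranges overlapped that of the 42 clones. One gene carries part of this gap: without Fasn, a choice made after seeing the values, the fatty acid mean of the 42 clones was -0.03 ± 0.10 (SD), and -0.15 in mouse 1, 0.01 in mouse 2 and 0.03 in chimera 2. Blood-derived and fibroblast-derived clones had about the same gap, -0.22 ± 0.06 (SD, n = 31) and -0.23 ± 0.16 (SD, n = 11). The spread between clones of 1 origin group, pooled over the 13 groups, was 0.07 for the sterol mean and 0.05 for the fatty acid mean.

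**Figure D1:**
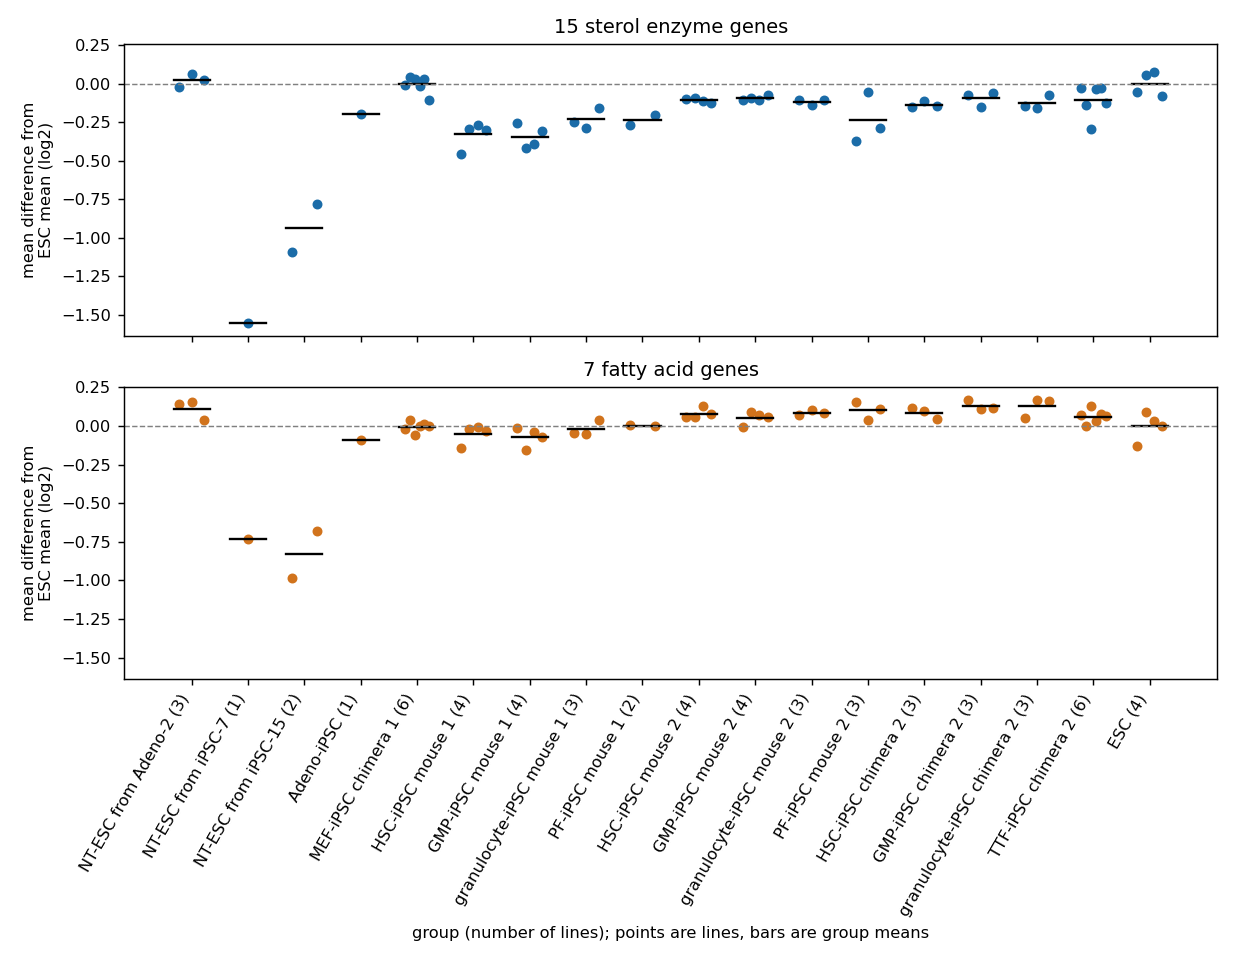
Mean difference from the ESC mean (log2, vertical axis) over 15 sterol enzyme genes (top) and 7 fatty acid genes (bottom), with 1 point per line, bars for group means and the number of lines in parentheses. The sterol points of mouse 1, mouse 2 and chimera 2 lie below the 0 line, the MEF-iPSC and ESC points lie around it, and NT-7, NT-8 and NT-9 lie far below in both panels.

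The first comparison asked whether iPSC of all origins differ from the ESC. Fasn, which encodes fatty acid synthase, was the only one of the 24 genes called, in a comparison that called 2.52% of all genes higher and 2.41% lower in iPSC. The gene lies at chr11:120805958-120825166 (GRCm38.p6). Its level was between 2.74 and 3.92 in the 48 iPSC clones, with a median of 3.53, against 3.20, 2.92, 2.90 and 3.04 in the 4 ESC clones. Fasn rose by 0.46 (SE 0.12, adjusted p = 0.0211). The rise was uneven over the groups: the 42 clones of the 3 animals, at 3.23 to 3.92, all exceeded the highest ESC clone, whereas the 6 MEF-derived clones, at 2.74 to 3.37, overlapped ESC. MEF were the only origin from chimera 1, so cell of origin and animal cannot be told apart in that contrast. Adeno-2 had 3.71, and NT-4, NT-5 and NT-6 had between 3.50 and 3.55. The 38 measured genes nearest to Fasn on its chromosome had group medians 0.03 to 0.18 above ESC in the 12 groups of the 3 animals, where Fasn was 0.38 to 0.64 above ESC. In MEF-derived clones the neighbours were 0.02 above ESC and Fasn was at -0.01.

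None of the 15 sterol enzyme genes was called in that comparison, although 6 had an unadjusted p under 0.05. Their median difference was -0.21, against 0.05 for the 7 fatty acid genes and 0.03 for all genes, and 4 of the 15 differences were above 0. Msmo1, which encodes the methylsterol monooxygenase that starts C4 demethylation, had levels of 2.61 to 3.64 in iPSC (median 3.24), against 3.33, 3.71, 3.68 and 3.50 in ESC. The difference was -0.35 (SE 0.12, adjusted p = 0.0705), and the groups overlapped. Tm7sf2, one of the sterol C14 reductases, differed by -0.32 (SE 0.13, adjusted p = 0.141), and Lss, which encodes the lanosterol synthase that closes the rings, by -0.32 (SE 0.17, adjusted p = 0.255). Further differences below 0 that did not pass were those of Sc5d (-0.29), the isoprenoid enzyme gene Fdps (-0.28), Mvd (-0.26) and Cyp51 (-0.25). Idi1, the isopentenyl diphosphate isomerase gene, differed by 0.02 and Nsdhl by 0.01.

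Among the remaining genes, Stard4, whose product carries sterol between membranes, had 1.00 to 2.33 in iPSC (median 1.65), against 1.44, 2.39, 2.35 and 2.13 in ESC. The ESC clones were themselves split, with ESC-1 lowest, and the difference of -0.42 (SE 0.15) had an adjusted p of 0.0816. Srebf2 differed by -0.18 (SE 0.10, adjusted p = 0.251). In the fatty acid branch, Acly, the ATP citrate lyase gene, differed by -0.21 (SE 0.08, adjusted p = 0.115) and Scd1, a stearoyl-CoA desaturase gene, by -0.18 (adjusted p = 0.326). Acaca, Elovl6, Fads1 and Fads2 lay between -0.06 and 0.11. Of 15 other SREBP pathway genes measured, out of 24 listed, 1 was called: Scap, the SREBP escort protein gene, rose by 0.44.

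This comparison rests on few ESC clones and on which iPSC are included. Without the MEF-derived clones, 8 members were called, with backgrounds of 10.2% higher and 9.06% lower. Fasn then rose by 0.53 (adjusted p = 3.5e-06), and 7 genes fell: Stard4 by 0.49, Msmo1 by 0.40, Tm7sf2 by 0.36, Sc5d by 0.33, Fdps by 0.32, Mvd by 0.30 and Acly by 0.21 on the log2 scale. Without ESC-1, 5 members were called (backgrounds 4.59% higher and 4.83% lower): Fasn rose and Mvd, Tm7sf2, Msmo1 and Stard4 fell. Without ESC-2, ESC-3 or ESC-4, or with animal as a random block, 0 members were called; with the block, Fasn differed by 0.42 (adjusted p = 0.499). Of 14 fibroblast and feeder markers 0 were called, but 12 had differences above 0 and 5 an unadjusted p under 0.05. Their median difference was 0.43, larger in size than that of the sterol genes, and their summed level was 5.05 to 40.0 in iPSC and 6.27 to 24.9 in ESC. Of 7 pluripotency markers 0 were called and 3 had an unadjusted p under 0.05, all 7 differences being below 0 with a median of -0.15. The part of these markers in the member differences was not tested. Of 8 trophoblast markers 3 fell.

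**Figure D2:**
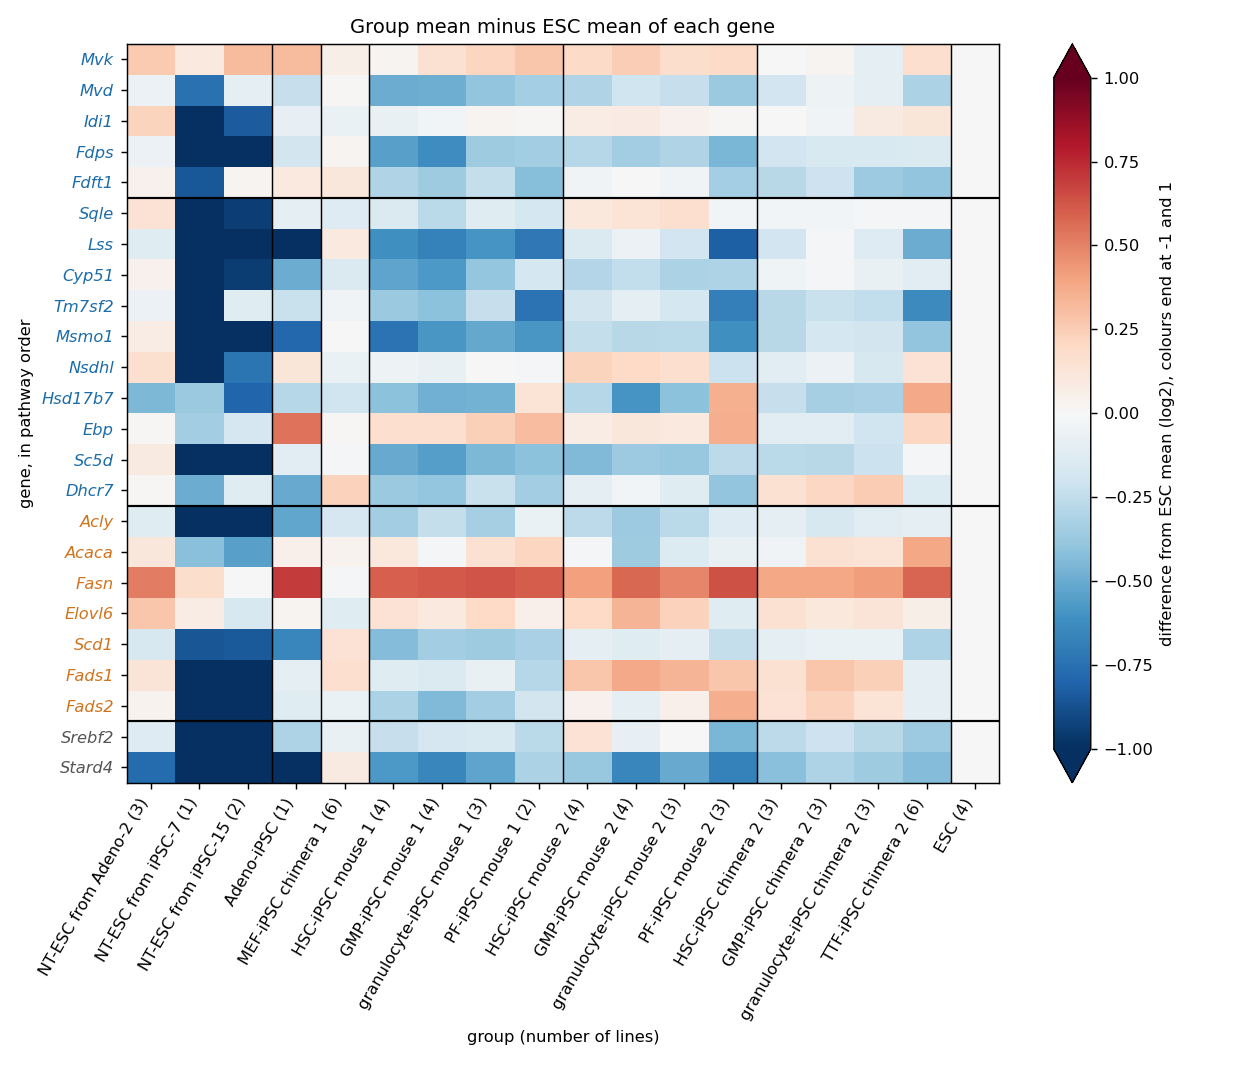
Group mean minus ESC mean (log2, colour scale ending at -1 and 1) for the 24 genes in pathway order (rows) and each group with its number of lines (columns). The Fasn row is above ESC in every iPSC group of the 3 animals and near 0 in MEF-iPSC, and most sterol rows are below ESC in mouse 1.

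The 6 MEF-derived clones against ESC give the narrowest matched comparison. No member was called, with 0% of all genes called by limma, while 997 genes and 0 members had an unadjusted p under 0.05. Member differences ran from -0.20 for Hsd17b7 to 0.23 for Dhcr7, which encodes the last reductase of cholesterol synthesis (adjusted p = 0.601). Their median was 0.00 for sterol and -0.01 for fatty acid genes, beside 0.01 for all genes. Fasn had 2.74 to 3.37 in MEF-derived clones (median 2.96), a difference of -0.01 (SE 0.13, adjusted p = 0.988) from ESC.

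Blood-derived against fibroblast-derived clones asked whether the cell of origin leaves a difference within an animal. The genes changed in both directions within each branch. In the fit over 42 clones with animal as a covariate, 10 of 24 members rose and 7 fell in blood-derived clones, where 28.1% of all genes rose and 21.6% fell. Among sterol genes 6 rose and 4 fell of 15, and among fatty acid genes 3 rose and 3 fell of 7, with median differences of 0.00 and -0.03 beside 0.00 for all genes. Each branch thus held genes that moved in opposite directions.

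Hsd17b7 encodes the 3-keto sterol reductase of C4 demethylation, and lies at chr1:169949535-169969242. Its level in blood-derived clones had a lowest, median and highest value of -1.92, -1.53 and -0.98, against -1.13, -0.83 and -0.35 in fibroblast-derived clones. It fell by 0.69 on the log2 scale (SE 0.07, adjusted p = 1.7e-10). The origins did not overlap within any of the 3 animals. The difference was -0.59 (adjusted p = 0.00799) in mouse 1, -0.78 (0.00085) in mouse 2 and -0.67 (0.00012) in chimera 2. MEF-derived clones, from another animal, had -1.77 to -0.97, and ESC had -0.57 in ESC-1 and -1.33 to -1.29 in the other ESC clones. Its mean level is among the lower 40% of genes.

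Tm7sf2, at chr19:6062821-6067850, went the other way. Blood-derived clones had a lowest, median and highest value of 0.77, 1.23 and 1.49, against 0.58, 0.81 and 0.95 in fibroblast-derived clones. It rose by 0.44 (SE 0.05, adjusted p = 7.9e-10). Within each animal the 2 origins again did not overlap: the lowest blood-derived clone was at 0.77 in mouse 1, 1.18 in mouse 2 and 1.07 in chimera 2, against highest fibroblast-derived clones of 0.73, 0.91 and 0.95. The differences were 0.40 (adjusted p = 0.0629, not called), 0.53 (4.7e-05) and 0.39 (6.6e-05). ESC had 0.90, 1.64, 1.76 and 1.51.

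Lss, at chr10:76531565-76557139, rose by 0.41 (SE 0.08, adjusted p = 3.2e-05). Blood-derived clones had a lowest, median and highest value of -0.24, 0.51 and 0.88, against -0.59, 0.14 and 0.47 in fibroblast-derived clones, and the origins overlapped. The animals differed: the Lss difference was 0.09 (adjusted p = 0.702) in mouse 1, 0.69 (0.0034) in mouse 2 and 0.38 (0.00222) in chimera 2, although the test of that interaction had an adjusted p of 0.0607.

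The other sterol genes that rose in blood-derived clones were Dhcr7 by 0.26 (adjusted p = 2.2e-05), Msmo1 by 0.19, Fdft1, the squalene synthase gene, by 0.18, and Mvd, the mevalonate diphosphate decarboxylase gene, by 0.11. Those that fell were Ebp, the sterol isomerase gene on chromosome X, with a difference of -0.27 (adjusted p = 0.00048), the C5 desaturase gene Sc5d (-0.17) and the mevalonate kinase gene Mvk (-0.12). Idi1, Fdps, Sqle, Cyp51 and Nsdhl did not pass, with differences between -0.04 and 0.05. In the fatty acid branch, the desaturase genes Fads1 and Scd1 rose by 0.20 and 0.14 and the elongase gene Elovl6 by 0.17, while Acaca (-0.20), which encodes acetyl-CoA carboxylase, Fasn (-0.13) and Acly (-0.11) fell. Fads2 differed by -0.03 and did not pass. The calls of Mvd, Fdft1 and Acaca were lost under quantile normalization. The regulator Srebf2 rose by 0.22 (SE 0.05, adjusted p = 0.00042). Of the 15 other SREBP pathway genes 3 rose (Abcg1 0.71, Acss2 0.62, Npc1 0.29) and 4 fell (Nr1h3 -0.26, Insig2 -0.22, Scap -0.20, Aacs -0.14).

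**Figure D3:**
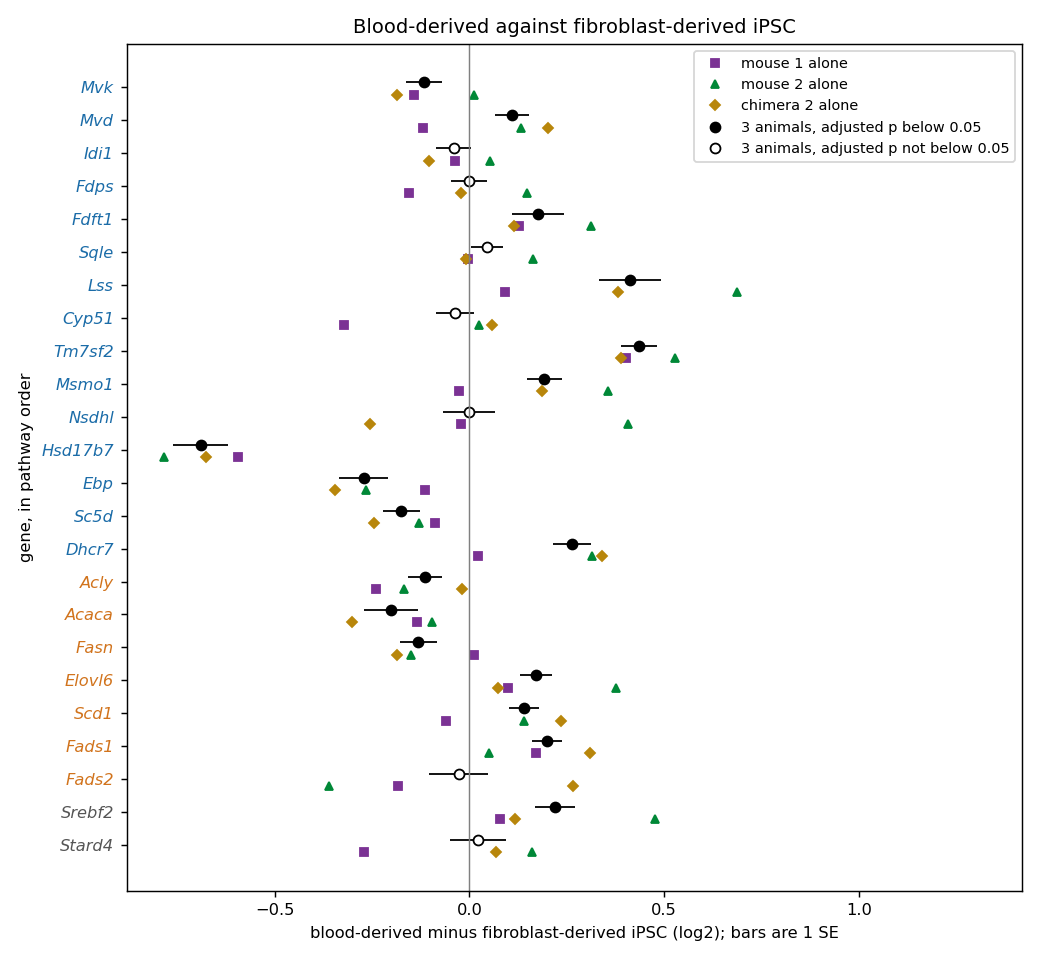
Blood-derived minus fibroblast-derived iPSC (log2, horizontal axis) for each gene, with black circles and 1 SE bars for the fit over 3 animals (filled when the adjusted p was below 0.05) and coloured symbols for each animal alone. Among the black circles Hsd17b7 is the farthest to the left and Tm7sf2 the farthest to the right, and the 3 animals lie close together for both, while Nsdhl and Fads2 have animals on either side of 0.

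Markers of fibroblasts and feeder cells moved with this contrast. Of 14 such markers 13 fell in blood-derived clones, with a median difference of -0.91, and their summed level was 11.3 to 33.1 in blood-derived against 23.0 to 40.0 in fibroblast-derived clones. Of 7 pluripotency markers 6 rose, by a median of 0.24. Of 9 haematopoietic markers 2 rose and 4 fell. Ptprc, which encodes the pan-leukocyte protein CD45, averaged -3.89 in blood-derived and -4.01 in fibroblast-derived clones, Cd53 averaged -1.26 and 0.15, and Coro1a averaged 1.11 and 0.81. With the mean of the fibroblast and feeder list as a covariate, 7 members were called (backgrounds 9.58% higher and 3.96% lower). Hsd17b7 was still lower, at -0.76 (adjusted p = 0.0003), while Tm7sf2 was at 0.17 (adjusted p = 0.131) and Lss at -0.06. Under that covariate Fdps, Cyp51, Mvk, Stard4 and Sc5d also fell and Fads1 rose. The part of these markers in the remaining differences was not tested.

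**Figure D4:**
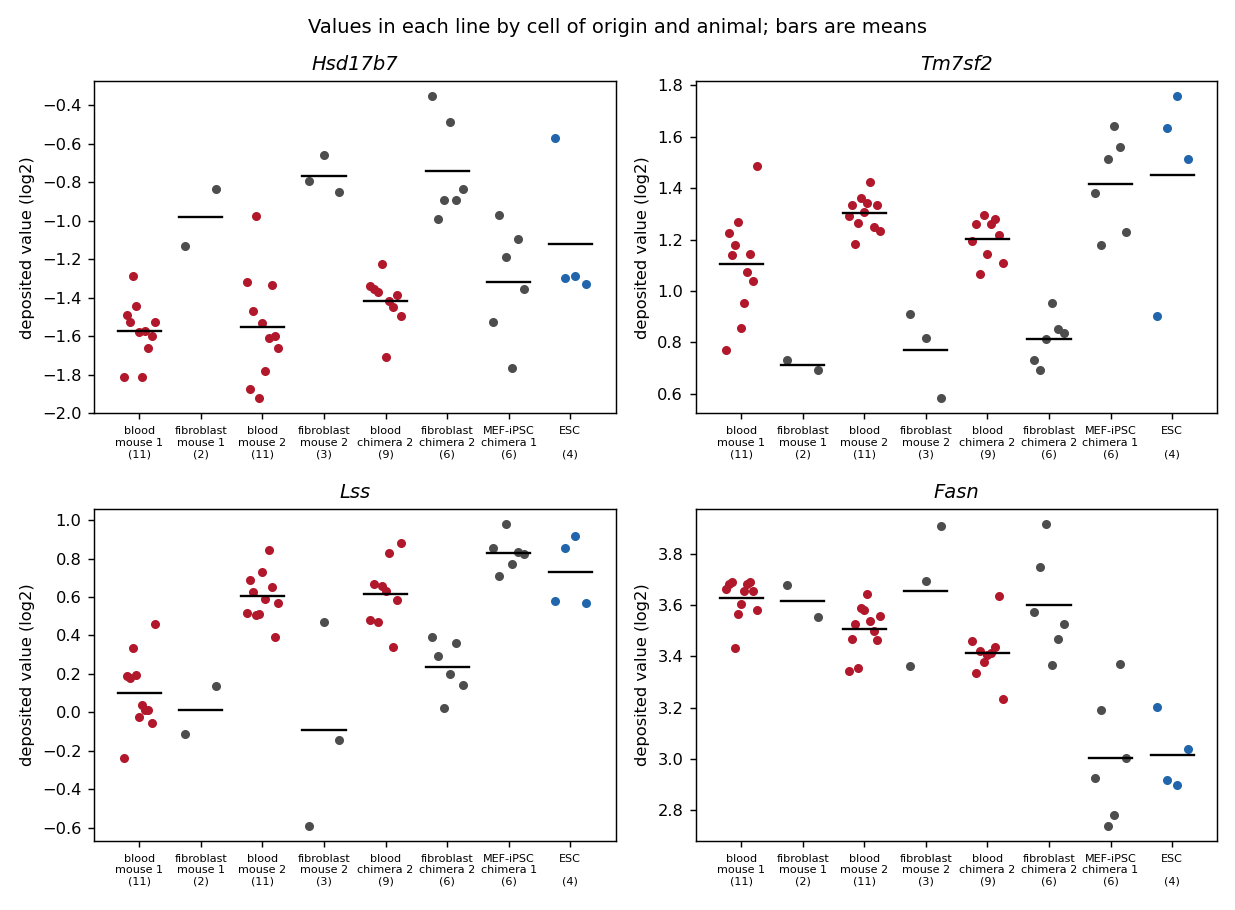
Deposited level (log2, vertical axes) of Hsd17b7, Tm7sf2, Lss and Fasn in each line, by cell of origin and animal, with 1 point per line, bars for means and the number of lines in parentheses. Blood and fibroblast points do not overlap within any animal for Hsd17b7 and Tm7sf2, and MEF-iPSC points overlap the ESC points in all 4 panels.

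Within the blood lineage, granulocyte-derived against HSC-derived clones set the most against the least mature cell of origin. No member was called and 0% of all genes were called by limma, while 390 genes and 0 members had an unadjusted p under 0.05. Differences lay between -0.10 for Hsd17b7 and 0.10 for Msmo1. In data simulated from these values with noise independent between clones, 96% of genes changed by 0.5 were recovered in this comparison. Changes as small as the member differences were not simulated.

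The 3 animals differed in most of these genes. With cell type in the fit, 19 of 24 members differed between animals, where 44.9% of all genes did. They were 12 of 15 sterol genes, 6 of 7 fatty acid genes and Srebf2; Idi1, Nsdhl, Hsd17b7, Elovl6 and Stard4 did not pass. Fads1, which encodes the delta-5 desaturase, averaged 1.50 ± 0.10 (SD, n = 13) in mouse 1, 1.95 ± 0.12 (n = 14) in mouse 2 and 1.73 ± 0.17 (n = 15) in chimera 2, a range of 0.47 in the fit (adjusted p = 3.2e-11). Dhcr7 averaged 3.20 ± 0.11, 3.39 ± 0.21 and 3.60 ± 0.18 in the same 3 animals (range 0.47, adjusted p = 1.3e-08). For both genes mouse 1 was lowest.

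Mouse 1 was also lowest for Lss, at 0.09 ± 0.19 (SD, n = 13), against 0.46 ± 0.38 (n = 14) in mouse 2 and 0.46 ± 0.25 (n = 15) in chimera 2 (range 0.48, adjusted p = 2.3e-05). Msmo1 had 2.94 ± 0.15, 3.22 ± 0.17 and 3.27 ± 0.12 in the same order (range 0.37, adjusted p = 1.1e-07). Cyp51, the lanosterol 14-demethylase gene, had 3.09 ± 0.17, 3.25 ± 0.14 and 3.47 ± 0.08 (range 0.37, adjusted p = 1.3e-06), and Fdps 2.90 ± 0.17, 3.05 ± 0.12 and 3.24 ± 0.08 (range 0.33, adjusted p = 4e-06). Fads2, the delta-6 desaturase gene, had 2.28 ± 0.19, 2.70 ± 0.25 and 2.69 ± 0.18 (range 0.42, adjusted p = 4.6e-05). Other genes peaked in mouse 2: Sqle had 2.73 ± 0.12, 3.02 ± 0.12 and 2.89 ± 0.08 (range 0.29, adjusted p = 5.1e-06), and Scd1 had 4.21 ± 0.10, 4.46 ± 0.09 and 4.42 ± 0.15 (range 0.25, adjusted p = 3.2e-06). Acaca was lowest in mouse 2, with -2.15 ± 0.20, -2.40 ± 0.24 and -2.04 ± 0.21 (range 0.32, adjusted p = 0.00093). Idi1 was the steadiest sterol gene by its range between animals, with 4.07 ± 0.10, 4.15 ± 0.16 and 4.15 ± 0.10 (range 0.08, adjusted p = 0.307). Of the other SREBP pathway genes 9 of 15 differed between animals, and of the fibroblast and feeder markers 12 of 14. Each animal is 1 individual, and the labels do not say whether animals were handled as batches, so animal and any such batch cannot be told apart.

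Whether the blood against fibroblast difference itself differed between animals was tested by an interaction, which called 8 of 24 members and 20.7% of all genes. Nsdhl, which encodes the sterol C4 dehydrogenase on chromosome X, averaged 1.36 ± 0.10 (SD, n = 11) in blood-derived and 1.39 ± 0.04 (n = 2) in fibroblast-derived clones of mouse 1. In mouse 2 it averaged 1.60 ± 0.09 (n = 11) and 1.19 ± 0.38 (n = 3), and in chimera 2 it averaged 1.29 ± 0.07 (n = 9) and 1.55 ± 0.19 (n = 6). The differences were -0.02, 0.41 and -0.25, with an adjusted p of 0.00033 for the interaction. The sign thus changed from animal to animal.

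Fads2 had differences of -0.18 in mouse 1, -0.36 in mouse 2 and 0.27 in chimera 2 (interaction adjusted p = 0.00369), its highest clone being iPSC-32 of mouse 2 at 3.44. Srebf2 had 0.08, 0.48 and 0.12 (0.0104), Elovl6 0.10, 0.38 and 0.07 (0.0102), and Msmo1 -0.03, 0.36 and 0.19 (0.0316). Cyp51 (0.0197), Scd1 (0.0349) and Mvd (0.0474) completed the 8. Mouse 1 and mouse 2 gave PF and chimera 2 gave TTF, so fibroblast source and animal cannot be told apart in these values. All 14 fibroblast and feeder markers passed the same interaction test, and their part in it was not tested. Tests within single animals called 0 members higher and 2 lower in mouse 1 (backgrounds 8.57% and 3.93%), 8 and 3 in mouse 2 (20.7% and 15.8%), and 8 and 5 in chimera 2 (18.2% and 13.9%).

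NT-ESC came from cloned blastocysts whose nuclei were taken from iPSC, so each line can be set against its own donor. Over all 6 lines no member was called by limma, where 0.0593% of all genes were; 6 members had an unadjusted p under 0.05. The 6 lines fell into different patterns by donor. The lines from Adeno-2 differed from their donor by -0.74 to 1.02, with Ebp (-0.61, -0.25 and -0.74) and Fasn (-0.21, -0.16 and -0.17) below the donor in all 3 lines. The lines from iPSC-7 and iPSC-15 had much lower levels of several genes of both branches.

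Fdps, which encodes farnesyl diphosphate synthase and lies at chr3:89093588-89101967, had -2.21 in NT-7 against 2.75 in its donor iPSC-7. It had -0.32 in NT-8 and 0.47 in NT-9, against 3.01 in their donor iPSC-15. NT-4, NT-5 and NT-6 had 3.32, 3.36 and 3.33, against 3.21 in Adeno-2. All 56 lines other than NT-7, NT-8 and NT-9 had Fdps between 2.64 and 3.58. Counted from the largest decrease against the donor among 11807 genes, Fdps was number 7 in NT-7, 65 in NT-8 and 70 in NT-9. Over the 6 lines the Fdps difference was -2.26 (SE 0.75, adjusted p = 0.0773).

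Other members that were low in these 3 lines were Sc5d, at -2.19, -2.18 and -1.45 relative to the donor in NT-7, NT-8 and NT-9, and Srebf2, at -1.82, -1.94 and -1.32. Lss was uneven, at -1.15, -2.97 and -0.08. Dhcr7, the last enzyme of the pathway, stayed near its donors, at -0.10, 0.15 and 0.12. Idi1, between 3.70 and 4.41 in the 56 other lines, had 2.38 in NT-7, 2.96 in NT-8 and 3.57 in NT-9. Sqle averaged 1.77 ± 0.41 (SD, n = 3) in the 3 low lines, against 2.89 ± 0.15 (n = 56) in the others, whereas Mvk averaged 1.09 ± 0.15 and 0.97 ± 0.15. In NT-7, NT-8 and NT-9, 10, 10 and 4 of 24 members were lower than in the donor by 1 or more, as were 17.7%, 15.2% and 9.21% of all genes. Among genes with a mean level above 2, it was 6, 6 and 3 of 13 members, against 31.1%, 27.5% and 13.7% of 3387 genes. In NT-4, NT-5 and NT-6, 0 members were lower by 1 or more.

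Each donor is a single array. The test within the lines from Adeno-2 measures only the spread of the NT-ESC arrays. The test within the lines from iPSC-7 and iPSC-15 also takes in how far both families disagree, donor arrays included. Neither test can tell nuclear transfer from what is particular to a donor's array. With that limit, the lines from iPSC-7 and iPSC-15 against their donors gave 8 members lower and 0 higher (backgrounds 10.4% lower and 10.2% higher). These were Fdps (-3.80, adjusted p = 0.0143), Sc5d (-1.97), Srebf2 (-1.71), Msmo1 (-1.49), Stard4 (-1.25), Idi1 (-1.20), Fads2 (-1.19) and Acly (-1.17). The lines from Adeno-2 gave 6 members higher and 0 lower (backgrounds 7.91% higher and 9.38% lower): Lss by 0.92, Msmo1 by 0.86, Cyp51 by 0.54, Dhcr7 by 0.52, Scd1 by 0.49 and Acly by 0.40. These 6 differences came with a large difference in the 14 fibroblast and feeder markers, whose summed level was 5.54 to 6.47 in NT-4, NT-5 and NT-6 against 26.2 in Adeno-2, and their part was not tested. Lss had 0.71, 0.69 and 0.42 in NT-4, NT-5 and NT-6, against -0.31 in Adeno-2, and Msmo1 had 3.59, 3.69 and 3.61, against 2.77.

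Markers moved with the low lines. The summed level of 10 primitive endoderm markers was 3.15 to 11.7 in NT-7, NT-8 and NT-9, against -15.5 to -15.4 in NT-4, NT-5 and NT-6 and -16.6 to -10.9 in iPSC. Sox17 averaged 1.24 in NT-7, NT-8 and NT-9 and -3.06 in NT-4, NT-5 and NT-6, and Gata6 averaged 0.26 and -1.76 in the same sets. Pou5f1 averaged 3.91 and 4.88, and the summed level of 14 fibroblast and feeder markers was 23.2 to 28.9 against 5.54 to 6.47. That sum was 5.05 to 40.0 in iPSC, so NT-7, NT-8 and NT-9 lay within the iPSC range. In the origin groups of their donors it was 22.2 to 33.1 (HSC, mouse 1) and 17.2 to 24.1 (granulocyte, mouse 1). The summed level of 8 trophoblast markers was 5.5 to 7.9 in NT-7, NT-8 and NT-9, against -4.3 to 3.0 in iPSC. The keratin genes Krt7 and Krt8 differed most, averaging 2.94 and 5.38 in these lines against -0.20 and 2.39 in iPSC. Cdx2 averaged -0.88 against -1.19, within the iPSC range of -1.92 to 0.22. Tfap2c was lower, at 3.45 against 3.92. The values of these 3 arrays were also less spread, with an SD of 2.348 to 2.468 against 2.535 to 2.642 in the other arrays. The part of these markers, of that narrower spread and of the arrays' lower correlation with the ESC and iPSC arrays in the member values was not tested.

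**Figure D5:**
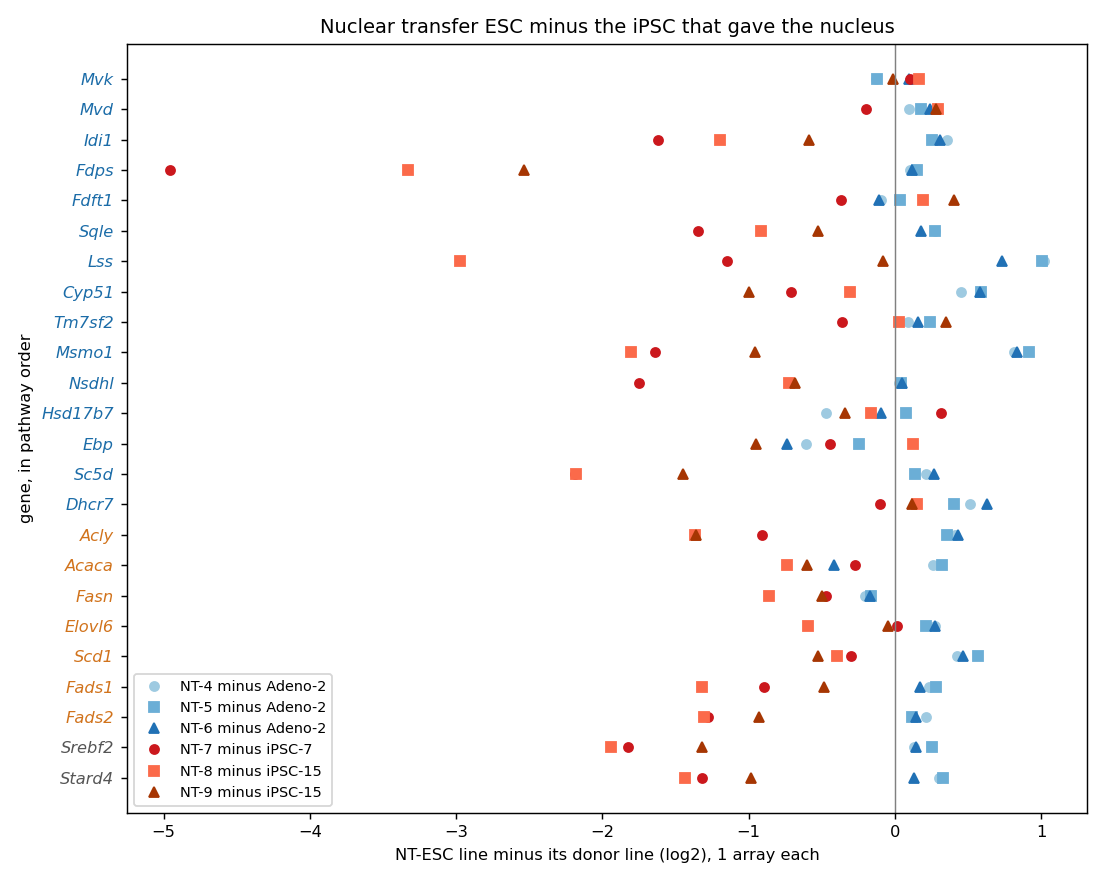
NT-ESC line minus the donor iPSC that gave its nucleus (log2, horizontal axis, 1 array each) for the 24 genes in pathway order, with blue symbols for lines from Adeno-2 and red symbols for lines from iPSC-7 and iPSC-15. Blue symbols lie between -0.74 and 1.02, whereas red symbols of Fdps reach -4.95 and those of Mvk, Mvd and Dhcr7 stay near 0.

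Against ESC, the 6 NT-ESC lines also gave 0 members called by limma, where 0.00847% of genes were called, with 5 members at an unadjusted p under 0.05. Taken alone, the 3 lines from Adeno-2 gave 1 called member against ESC: Fasn rose by 0.52 (2% of genes rose). NT-4, NT-5 and NT-6 had Fasn at 3.50 to 3.55, against 2.90 to 3.20 in ESC, and the donor Adeno-2 had 3.71. The sterol mean of these 3 lines was 0.02 above ESC, against 0.20 below ESC in Adeno-2, whose fibroblast and feeder markers were the higher ones, as given above. Without NT-4, NT-5 and NT-6, 16 members fell, where 22% of all genes fell, led by Fdps (-4.08), Sc5d (-2.41), Lss (-2.20), Msmo1 (-2.11) and Stard4 (-2.06). The donor comparison and this one share the NT-ESC arrays, so they are not independent.

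Within origin groups, pairs of sterol genes had a higher median correlation from clone to clone than the other pairs. Over 48 iPSC clones, after each value was set against its origin group's mean, the median Pearson correlation was 0.18 over 105 pairs of sterol genes, -0.07 over 21 pairs of fatty acid genes and 0.00 over 105 mixed pairs. It was 0.02 for pairs of all genes with a mean level above 0. These are descriptions over clones that share group, culture and array quality. The closest pairs were Idi1 with Sc5d (0.79), Cyp51 with Idi1 (0.71) and Nsdhl with Sqle (0.68), the last of which encodes squalene epoxidase. The most opposed were Dhcr7 with Ebp (-0.62), Acly with Elovl6 (-0.61) and Fasn with Scd1 (-0.60). Clone iPSC-32, which stood apart in Pou5f1, was far from the other clones of its group in several of these genes. In iPSC-32, Idi1, Sc5d and Cyp51 had 3.70, 0.86 and 2.88. They had 4.41, 1.53 and 3.49 in iPSC-33 and 4.22, 1.48 and 3.33 in iPSC-34. Dhcr7 and Ebp had 2.73 and 2.51 in iPSC-32, 3.29 and 1.67 in iPSC-33 and 3.40 and 1.44 in iPSC-34. Correlations without iPSC-32 were not computed. Cyp51, Lss and Fdft1 had the highest median correlation with the other sterol genes, at 0.42, 0.40 and 0.37, and Ebp had -0.05. Clone iPSC-46 was among these lines, with Fdft1 0.83 below its group and the lowest Cyp51 of that group. Correlations without it are not given.

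Outside the list, the 10 genes most like the sterol mean were Rragc (0.81), Scarb2, Ndrg2, Dnajc27, Hmgb3, Fxyd6, Gpr19, Phf2, Ldb3 and Cadm1 (0.69). They were taken from 6143 genes by the correlation with the mean of 14 sterol genes over the same 48 group-centred clones, iPSC-32 among them.

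Some clones had a member and its chromosome neighbours shifted together. In iPSC-46, a TTF-derived clone, Fdft1 was 0.83 below its group and the median of its 40 nearest measured genes was 0.46 below. In the same clone Fasn was 0.32 and its neighbours 0.29 above their group, and Acaca, also on chromosome 11, was 0.25 and its neighbours 0.27 above. In iPSC-32, Fasn was 0.29 and its neighbours 0.22 below the mean of its group of 3 clones. In iPSC-34 of that group, Fasn was 0.25 and its neighbours 0.22 above it. The neighbours of Fasn had a median 0.18 above ESC in this group, so a value below the group mean need not lie below ESC. Without clones whose neighbours deviated by more than 0.2, the blood against fibroblast differences of Fdft1 (0.11, adjusted p = 0.0605), Acly (-0.10, adjusted p = 0.0702) and Fasn (-0.09, adjusted p = 0.0709) were no longer called, and Acaca (-0.17, adjusted p = 0.0364) was. The Fasn difference between iPSC and ESC was then 0.45 (adjusted p = 0.0114).

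Where genes had several probe sets, these did not always move together: the lowest correlation over lines between probe sets was 0.07 for Cyp51, 0.16 for Sc5d and 0.37 for Elovl6. The probe sets that were not used were dimmer, averaging -3.91 for Sc5d, -1.28 for Cyp51 and 1.53 for Elovl6, and another probe set of Cyp51 had a correlation of 0.74. With the mean of a gene's probe sets in place of the brightest, all 17 blood against fibroblast calls remained. Among them, Fdft1, Lss, Tm7sf2, Msmo1, Ebp, Dhcr7, Acaca, Fasn and Fads1 had a single probe set, so this choice could not alter their values. Cyp51 was not among those calls. Of the 24 genes 12 had a single probe set.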

How the data were processed

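Affymetrix arrays, 1 per line, measured messenger RNA in 59 mouse lines. Per the labels, RNA was extracted with a miRNeasy kit and labelled with an Affymetrix kit. The authors deposited 22626 probe set values per array, which are log2 intensities centred near 0 (array medians -0.347 to -0.051). The base and the centring were inferred from their range (-4.827 to 6.969), and how arrays were normalized or batched is not given in the sources used here.

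Of the probe sets, 18003 had 1 gene in the platform annotation, 287 several and 4336 none. Each of 11807 genes was represented by the probe set with the highest mean. Tests used limma 3.58.1 (lmFit, eBayes) in R 4.3.3, 2-sided, with Benjamini-Hochberg adjustment over all genes and a threshold of 0.05, and were tested on simulated data. Tables were made with Python 3.11.15 and pandas 2.3.3. Blood, fibroblast and animal terms shared 1 fit of 42 clones, and NT-ESC were fitted with donor as a block. Branch means and correlations are descriptions. No filter on low values was applied, and arrays give no count depth, so their number limits precision. Promoters were RefSeq windows of 300 bases.

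The members, the gene lists and the rule that any member may be named were chosen with earlier results of these data known. Other genes are named only if past the threshold, as defining markers, or among the 10 most like the sterol mean. Alternatives covered normalization, low genes, probe set choice, moderation, blocks, covariates and lines left out.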

Additional observations from a re-analysis of the deposited data

Results flagged for a closer look

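In groups of 4 to 10 lines, 17 of 168 highest or lowest values stood farther from the rest of their group than the limit of Dixon's test allows, where chance gives about 1 in 20. Clone iPSC-46, 1 of 6 TTF-derived clones of chimera 2, held 5 of them, as the lowest of its group in each. Its values were 1.997 for Fdft1 against 2.916 to 3.116 in the other 5 clones, 0.735 for Mvk against 1.035 to 1.084, and 3.237 for Cyp51 against 3.435 to 3.528. It also had 1.196 for Nsdhl against 1.501 to 1.679, and 2.46 for Srebf2 against 2.764 to 2.911. The neighbours of Fdft1 were lower in this clone too, as given above.

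Among ESC, ESC-1 had the highest Hsd17b7 at -0.569 against -1.331 to -1.29 in the others, which overlaps the fibroblast-derived iPSC. ESC-4 had the highest Mvk at 1.067 against 0.757 to 0.8, and the lowest Sqle at 2.782 against 2.952 to 2.98. In MEF-derived clones, iPSC-5 had the lowest Msmo1 at 3.275 against 3.595 to 3.64 and the highest Nsdhl at 1.577 against 1.234 to 1.332, and iPSC-6 had the lowest Fdps at 3.069 against 3.393 to 3.584. In HSC-derived clones of mouse 1, iPSC-9 had the highest Sqle at 2.974 against 2.68 to 2.721, and iPSC-10 the lowest Fasn at 3.431 against 3.662 to 3.689. In GMP-derived clones of mouse 1, iPSC-11 had the highest Elovl6 at 3.528 against 3.41 to 3.419 and the highest Fads2 at 2.325 against 2.122 to 2.152, and iPSC-12 the lowest Nsdhl at 1.102 against 1.37 to 1.425. In GMP-derived clones of mouse 2, iPSC-25 had the lowest Acaca at -2.983 against -2.514 to -2.428.

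The blood against fibroblast difference varied between the 3 animals, by limma's interaction test, for 8 genes. The range of that difference over animals was 0.664 for Nsdhl (adjusted p = 0.000333), 0.629 for Fads2 (0.00369), 0.402 for Srebf2 (0.0104) and 0.39 for Msmo1 (0.0316). It was 0.388 for Cyp51 (0.0197), 0.327 for Mvd (0.0474), 0.307 for Elovl6 (0.0102) and 0.296 for Scd1 (0.0349).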

How the results depend on the processing

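The number of called members in iPSC against ESC, 1 at first, was 0 to 5 when an ESC clone was left out, 0 with animal as a random block, 11 with origin groups of equal weight and 8 without MEF-derived clones. Over all genes that comparison called 583, against 1112, 6, 5 and 303 without ESC-1, ESC-2, ESC-3 and ESC-4, 0 with the block, 3039 with equal weights and 2280 without MEF-derived clones. In blood-derived against fibroblast-derived clones, 17 members were called at first. The number was 10 on 1 mean per animal and cell type, 11 without mouse 2 and 11 without chimera 2. It was 2 within mouse 1, 11 within mouse 2 and 7 with the fibroblast and feeder covariate. Some of these calls were new: of the first 17, 1 kept its call and direction within mouse 1, and 4 did with the covariate. All-gene counts were 5870 at first, 4299 on those means, 4330 without mouse 2 and 5138 without chimera 2. They were 1476 within mouse 1, 4315 within mouse 2, 3786 within chimera 2 and 1598 with the covariate. NT-ESC against donor gave 6 members over NT-4, NT-5 and NT-6 alone and 8 over NT-7, NT-8 and NT-9 alone (2042 and 2434 genes, against 7), and NT-ESC against ESC gave 1 and 16 (468 and 6744 genes, against 1).

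The median sterol minus median fatty acid difference in iPSC against ESC, -0.257, was -0.172 with the mean of probe sets and -0.358 to -0.155 with an ESC clone left out. In blood-derived against fibroblast-derived clones it had no stable sign: 0.136 on 1 mean per animal and cell type, -0.146 without mouse 2, 0.243 within mouse 2, -0.081 within chimera 2, -0.095 with the covariate and -0.086 without iPSC-32. In NT-ESC against donor it was 0.136 with the mean of probe sets, 0.064 without the donor block and -0.069 to 0.141 with 1 line left out. In NT-ESC against ESC it was -0.218 as a difference of means, -0.229 over NT-7 to NT-9 alone, and -0.109 to 0.134 with 1 line left out. The clone numbers shared by MEF-derived clones and ESC are names only. With them as a replicate block, in a fit that left out iPSC-5 and iPSC-6, 0 members and 15 genes were called. The median difference was 0.116 in place of 0.015. A block does not change the differences in so balanced a fit, so the new median reflects the lines left out. One fit over all groups called 0 members and 203 genes.

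Signs turned for blood against fibroblast in Mvk (0.012) within mouse 2, in Mvd (-0.12), Msmo1 (-0.026), Fasn (0.011) and Scd1 (-0.059) within mouse 1, and with the covariate in Mvd (-0.092), Fdft1 (-0.125), Lss (-0.062), Msmo1 (-0.11), Fasn (0.046), Elovl6 (-0.015), Scd1 (-0.03) and Srebf2 (-0.073); the cause was not tested. For single genes, 305 values kept direction and call, 68 kept direction and lost the call and 13 changed sign. Quantile normalization ended the blood against fibroblast calls of Mvd (0.073), Fdft1 (0.152) and Acaca (-0.149). Leaving out genes under the 40th percentile removed Hsd17b7 and Acaca from testing. No pseudocount was needed, since the values are logarithms. In data simulated with noise independent between lines, a change of 0.5 was recovered in 72% of genes for iPSC against ESC and 57% for MEF-derived clones against ESC. For NT-ESC against donor it was 0%, so changes of that size could not be detected in the fit over all NT-ESC lines.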
